A study of Homo sapiens with 6 samples.

Results

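The core spliceosome snRNP genes encode the proteins that form, together with small nuclear RNAs, the particles that remove introns from pre-mRNA. The choice was made by symbol, with earlier results of these data known. It took every gene of the SNRP, SNRNP, LSM, SF3A, SF3B and PRPF families plus U2AF1 and U2AF2, and 55 of the 16834 genes in the deposited table belonged to them. Of these, 20 encode Sm or LSM proteins and 35 encode other factors. Coding lengths were under 1000 bases for 17 of the 20 and for 11 of the 35. SNRPN, which the choice by symbol also admits, was not analysed here.

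The 6 libraries are RNA-seq of RNA that came down with tagged ribosomes, 3 from an immunoprecipitation with a Flag antibody (Flag-IP) and 3 from one with an HA antibody (HA-IP). All came from asynchronous HEK293-T Flp-In cells, a human embryonic kidney line labelled as epithelial-like, that stably carried a single Flp-In insertion of ccTaggedRP. In this construct a CAG promoter drives a bicistronic message for mouse RPL10a with a Flag tag and a fragment of human Cdt1, a self-cleaving peptide, and mouse RPL10a with an HA tag and a fragment of human Geminin. The Cdt1 fragment is degraded outside G1 and early S phase and the Geminin fragment outside S, G2 and M phases, so the comparison asks which mRNAs were held by ribosomes carrying one or the other protein. Both groups share the cell line, the construct and the growth conditions, and no library of unselected RNA was analysed here. The labels do not say whether the libraries of a group came from separate cultures, so p-values measure the spread between these libraries, which may be technical. In such bulk samples, fewer cells holding a message and less of the message per cell cannot be told apart.

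Splicing begins when the U1 snRNP binds the start of an intron and the U2 snRNP, guided by U2AF, binds the branch point. The U4/U6 and U5 particles then join as a tri-snRNP, and helicases rearrange the assembly into the catalytic machine. The Sm proteins close into a ring around the U1, U2, U4 and U5 RNAs, the LSM proteins form the matching ring on U6 RNA, and a related cytoplasmic LSM ring acts in mRNA decay.

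The called members fell into short and long coding sequences. The coding sequences of 4 members, of which SNRPG was not called, show how far apart the lengths lie. Each is given from its start codon, in capitals, and without the stop codon, as read from GRCh38 along the canonical transcript of GENCODE 44. SNRPG and PRPF8 were shown because they have the shortest and the longest coding sequence of all 55 members, and SF3B5 and LSM5 because they are the called members whose coding sequence has at most 300 bases.
SNRPG lies on the minus strand with 4 coding exons between chr2:70281637-70293649, and its whole coding sequence has 228 bases.
SNRPG: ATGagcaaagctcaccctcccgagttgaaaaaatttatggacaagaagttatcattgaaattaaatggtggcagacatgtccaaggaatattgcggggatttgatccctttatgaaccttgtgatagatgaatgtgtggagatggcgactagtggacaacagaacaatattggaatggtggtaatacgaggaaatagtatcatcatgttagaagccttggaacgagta
SF3B5 lies on the minus strand with 1 coding exon at chr6:144095240-144095497, and its whole coding sequence has 258 bases.
SF3B5: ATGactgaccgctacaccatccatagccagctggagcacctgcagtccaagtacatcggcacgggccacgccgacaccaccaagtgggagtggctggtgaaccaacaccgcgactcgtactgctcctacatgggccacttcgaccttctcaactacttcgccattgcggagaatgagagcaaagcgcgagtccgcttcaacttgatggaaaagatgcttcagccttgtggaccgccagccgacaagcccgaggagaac
LSM5 lies on the minus strand with 5 coding exons between chr7:32487264-32490365, and its whole coding sequence has 273 bases.
LSM5: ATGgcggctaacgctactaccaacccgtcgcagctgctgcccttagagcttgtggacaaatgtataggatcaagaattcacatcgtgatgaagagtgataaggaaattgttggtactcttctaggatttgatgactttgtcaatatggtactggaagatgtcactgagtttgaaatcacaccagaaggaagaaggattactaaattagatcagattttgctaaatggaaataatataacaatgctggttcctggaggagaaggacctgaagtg
PRPF8 lies on the minus strand with 42 coding exons between chr17:1650805-1684571, and the 300 bases shown are 4.28% of its 7005 coding bases.
PRPF8: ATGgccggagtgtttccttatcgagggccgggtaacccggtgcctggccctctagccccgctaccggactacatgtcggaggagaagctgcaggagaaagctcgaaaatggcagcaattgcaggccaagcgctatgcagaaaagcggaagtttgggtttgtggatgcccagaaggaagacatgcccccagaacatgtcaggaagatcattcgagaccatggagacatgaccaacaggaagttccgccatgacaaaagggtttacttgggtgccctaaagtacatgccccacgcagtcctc
The coding sequences of SNRPG and LSM5 hold 39.9% and 41.0% G or C, those of SF3B5 and PRPF8 57.8% and 52.2%, so the short genes did not share one base composition.

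Values are normalized counts, reads per gene divided by a size factor per library, and libraries held 23174532 to 44134833 reads on the listed genes. A member was called when limma gave an adjusted p of at most 0.05 over all 16834 genes, and fold changes are HA-IP over Flag-IP on the log2(normalized count + 1) scale. The 7 HEK293 markers were all present, at summed levels of 70138 to 76741 normalized counts by Flag-IP and 74569 to 76274 by HA-IP. Markers of heart muscle, a tissue the labels do not name, were also present. Of 21 listed, 17 had values, all 17 were called higher in the Flag-IPs, and their summed level was 207612, 151038 and 98852 normalized counts in Flag-IP 1, 2 and 3 against 3387, 2087 and 19614 in HA-IP 1, 2 and 3. None of these genes was at 0 in all libraries. Of the fibroblast markers 5 of 6 with values, of the endothelium markers 4 of 5 and of the blood markers 2 of 2 were called higher in the Flag-IPs, and 1 of the 7 HEK293 markers was. Summed fibroblast markers came to 6258 to 8752 normalized counts by Flag-IP and 2710 to 3341 by HA-IP, endothelium markers to 150.3 to 257 and 54 to 70.6, and blood markers to 364 to 474 and 128 to 230.5. The part that this other RNA had in the results on the members was not tested.

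The called members divided by coding length, short ones higher in the Flag-IPs and long ones higher in the HA-IPs. Of the 55 members, 8 were higher in the Flag-IPs, against a background of 7.10% of all genes tested (14.5% of the members), and 8 were higher in the HA-IPs, against a background of 5.79% (14.5% of the members). The 8 higher in the Flag-IPs were LSM5, LSM12, SF3B5, LSM4, LSM3, SNRPD2, SNRNP25 and PRPF18, with coding lengths of 258 to 1026 bases. The 8 higher in the HA-IPs were PRPF19, SF3B3, SF3B1, PRPF6, PRPF8, PRPF3, SNRNP70 and SNRNP200, with coding lengths of 1311 to 7005 bases. The coding lengths of the called sets therefore did not overlap, whereas their transcript lengths did, at 515 to 3359 bases and 1671 to 9692 bases. The remaining 39 members were not called, and the libraries of the groups did not overlap for 31 of the 55 members, or 56.4%, against 32.2% of all genes. The median level was 1849 normalized counts for the members and 473 for all genes, and the part of level in these shares was not tested. The counts of called members depended on single libraries and on scaling. With every library scaled to the same total, 11 members were higher in the Flag-IPs and 5 lower, and with quantile normalization 4 and 2 were. Without Flag-IP 1 the counts were 4 and 5, without HA-IP 1 they were 1 and 3, without HA-IP 2 they were 2 and 2, and without HA-IP 3 they were 6 and 2. Without Flag-IP 2, limma called 2 members higher in the Flag-IPs and 0 higher in the HA-IPs, where 10 had an unadjusted p under 0.05. The same limma fit without the trend of variance with level called 1 and 0 members, with 8 and 9 at an unadjusted p under 0.05, where edgeR called 7 and 8 and DESeq2 9 and 8. LSM5 was called in all 6 fits that left out a library and PRPF19 in 5 of them.

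**Figure D1:**
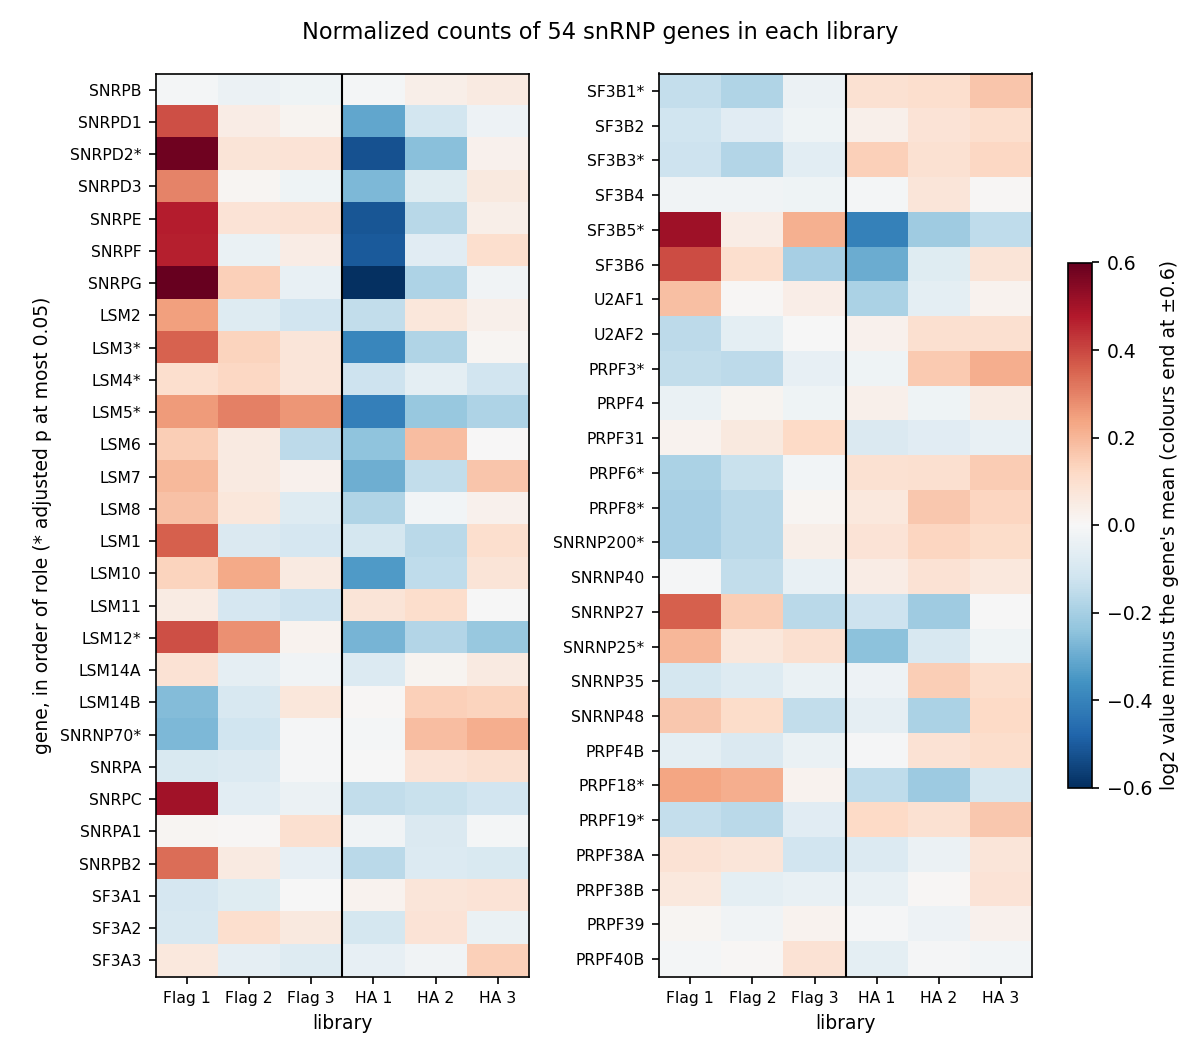
Each row is 1 of 54 members in order of role and each column is 1 library, with colour for the log2 value minus the gene's mean over the 6 libraries, and an asterisk for an adjusted p of at most 0.05. Sm and LSM genes fill the upper left, where Flag-IP 1 is the highest library for 13 of 20 and HA-IP 1 the lowest for 16 of 20.

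Of the Sm and LSM genes, 17 of 20 had a fold change below 0 and their median log2 fold change was -0.19, against 0.04 for the 35 other members and near 0 for all genes (-0.0049). The median of the other members changed sign, to -0.0086, when every library was scaled to the same total. By limma, 5 of the 20 (25%) were called higher in the Flag-IPs and 0 higher in the HA-IPs, where 1 had an unadjusted p under 0.05, and edgeR and DESeq2 also called 0. Of the 35 others, 8 (22.9%) were called higher in the HA-IPs and 3 (8.57%) lower. Over all genes the shares were 7.10% higher in the Flag-IPs and 5.79% lower.

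The Sm ring, a heptamer around the U1, U2, U4 and U5 RNAs, had fold changes below 0 in all its genes but SNRPB, and 1 of the 7 was called by limma, where DESeq2 called 3 others, SNRPD1, SNRPE and SNRPG. SNRPD2, the Sm D2 subunit, had normalized counts of 1962, 1380.2 and 1384 in Flag-IP 1, 2 and 3 and 910.3, 1099 and 1331 in HA-IP 1, 2 and 3. Its groups did not overlap, but Flag-IP 1 stood well above the other Flag-IPs and HA-IP 3 came close to them. This gave SNRPD2 a log2 fold change of -0.50 ± 0.15 (SE, adjusted p = 0.047, limma), that is 1.41-fold higher in the Flag-IPs. Without Flag-IP 1, its log2 fold change was -0.33 and it was not called, nor did DESeq2 call it (adjusted p = 0.16). SNRPG, the Sm G subunit and the shortest coding sequence, had 482, 313 and 274 normalized counts by Flag-IP against 179, 249 and 279 by HA-IP. Here the groups overlapped, since HA-IP 3 exceeded Flag-IP 3, and Flag-IP 1 and HA-IP 1 were the extremes. By limma, SNRPG had a log2 fold change of -0.57 ± 0.21 (SE, adjusted p = 0.092), and it was not called. This was the lowest fold change of any member, and without Flag-IP 1 it was -0.34. The processed pseudogenes SNRPGP10 and SNRPGP2, near-copies with which reads could be shared, held at most 53.2 and 18.1 normalized counts in any library. The other Sm genes, SNRPB, SNRPD1, SNRPD3, SNRPE and SNRPF, had log2 fold changes of -0.43 (SNRPE) to 0.05 (SNRPB) and adjusted p-values of 0.064 to 0.51 (limma), and none was called. SNRPB, which encodes the largest protein of the ring, was also its most abundant message, at 10843 to 11536 normalized counts over the 6 libraries. SNRPEP4, a processed pseudogene of SNRPE, held 11.1 to 28.6 normalized counts by Flag-IP against 1.1 to 5.0 by HA-IP, with a log2 fold change of -2.33 and an adjusted p of 0.022 in limma.

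The U6 ring held the member with the smallest p. LSM5, a subunit of both the nuclear U6 ring and the cytoplasmic decay ring, had 1010.4, 1042 and 1015.5 normalized counts by Flag-IP against 636.5, 721 and 744 by HA-IP. The Flag-IPs lay close together and well above every HA-IP. LSM5 had a log2 fold change of -0.55 ± 0.07 (SE, adjusted p = 0.0012, limma), or 1.46-fold higher in the Flag-IPs. Over the fits that left out a library, its log2 fold change ran from -0.59 to -0.48. LSM3, another subunit of both rings, had 1262, 1084 and 1039.5 normalized counts by Flag-IP against 753, 871.5 and 997 by HA-IP. Its groups were apart by a small distance, between Flag-IP 3 and HA-IP 3. This gave LSM3 a log2 fold change of -0.37 ± 0.10 (SE, adjusted p = 0.037, limma), that is 1.29-fold higher in the Flag-IPs. LSM4, a subunit of both rings with a longer tail, had 3427, 3489 and 3361 normalized counts by Flag-IP against 2929, 3071 and 2952 by HA-IP. Its replicates were tight in both groups and the groups did not overlap. By limma, LSM4 had a log2 fold change of -0.20 ± 0.05 (SE, adjusted p = 0.02), or 1.15-fold higher in the Flag-IPs. The other genes of this ring, LSM2, LSM6, LSM7 and LSM8, of which LSM8 is the subunit found only in the nuclear ring, all had fold changes below 0 (log2 -0.18 to -0.03), but their groups overlapped and adjusted p-values were 0.29 to 0.91 (limma).

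LSM1, which takes the place of LSM8 in the cytoplasmic decay ring, had 336, 247 and 244 normalized counts by Flag-IP against 244, 235 and 281 by HA-IP. Flag-IP 1 alone was high, and the remaining Flag-IPs lay among the HA-IPs. LSM1 had a log2 fold change of -0.11 ± 0.14 (SE, adjusted p = 0.67, limma), and it was not called. Its sign turned without Flag-IP 1, to 0.04. LSM10, a subunit of the U7 particle that processes histone mRNA ends, had 399, 424 and 376 normalized counts by Flag-IP against 286.5, 327 and 383 by HA-IP. HA-IP 3 lay above Flag-IP 3, so the groups overlapped. This gave LSM10 a log2 fold change of -0.28 ± 0.11 (SE, adjusted p = 0.14, limma), and it was not called. LSM11, its partner in U7 with a longer coding sequence, had a log2 fold change of 0.12 and was not called (adjusted p = 0.32, limma).

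LSM12, an LSM-domain protein outside the snRNP rings, had 1039, 960.2 and 805 normalized counts by Flag-IP against 655.5, 703 and 679 by HA-IP. Every Flag-IP lay above every HA-IP, and the HA-IPs were close together. By limma, LSM12 had a log2 fold change of -0.45 ± 0.09 (SE, adjusted p = 0.0094), or 1.37-fold higher in the Flag-IPs. Its pseudogene LSM12P1 held at most 16 normalized counts in any library. LSM14A and LSM14B, large cytoplasmic proteins of RNA granules, had log2 fold changes of -0.0082 and 0.19 and were not called.

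**Figure D2:**
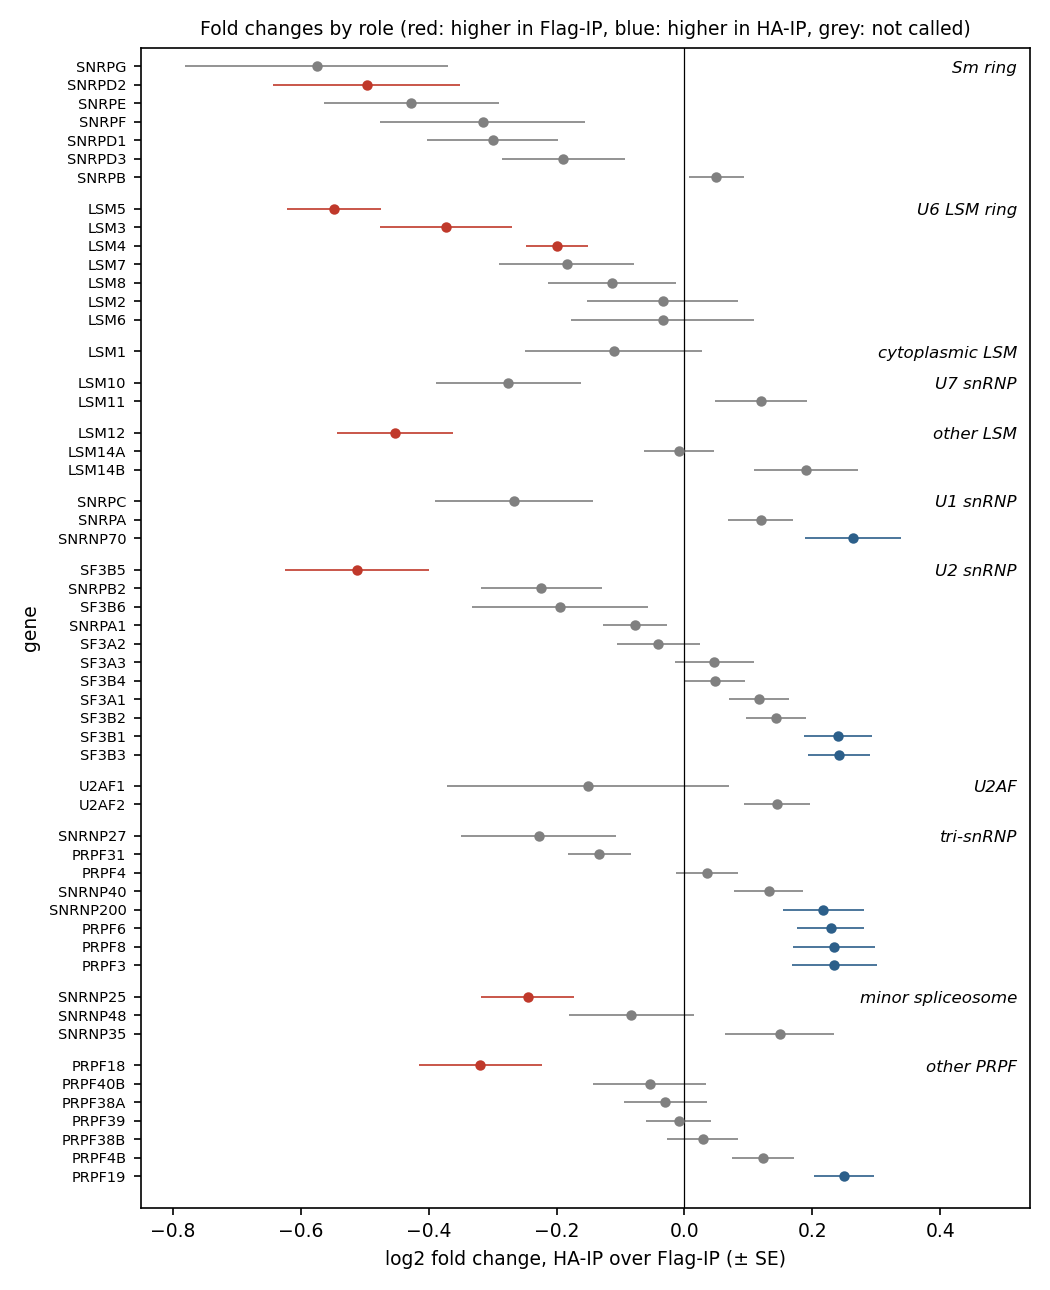
Each point is the log2 fold change of 1 of 54 members, HA-IP over Flag-IP, with its SE from limma, grouped by role and ordered within a role, in red or blue for members called higher in the Flag-IPs or HA-IPs. The Sm and U6 LSM rings lie to the left of 0 in 13 of 14 genes, while 6 of 8 tri-snRNP genes lie to the right. Over all genes tested, 8257 of 16834 had fold changes above 0.

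The U1 proteins had fold changes on both sides of 0, and 1 of the 3 was called. SNRNP70, which binds the first stem-loop of U1 RNA, had 23603, 26225 and 28347 normalized counts by Flag-IP against 28266, 32383 and 33163 by HA-IP. Flag-IP 3 and HA-IP 1 were nearly equal and overlapped, and the other HA-IPs were the highest libraries. SNRNP70 had a log2 fold change of 0.26 ± 0.08 (SE, adjusted p = 0.042, limma), or 1.2-fold higher in the HA-IPs. SNRPC, the smallest U1-specific protein, had 1573, 1060.2 and 1081 normalized counts by Flag-IP against 999.9, 1011 and 1023 by HA-IP. The groups did not overlap, but only Flag-IP 1 was far from the HA-IPs. This gave SNRPC a log2 fold change of -0.27 ± 0.12 (SE, adjusted p = 0.19, limma), and it was not called. SNRPA, the third U1-specific protein, had a log2 fold change of 0.12 (adjusted p = 0.15, limma).

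In the U2 snRNP, subunits of one and the same SF3b complex were called in opposite directions. SF3B1, the scaffold that holds the branch point and is often mutated in myelodysplasia, had 35570.3, 34636.5 and 38302 normalized counts by Flag-IP against 41915, 42063 and 44133 by HA-IP. The lowest HA-IP was above the highest Flag-IP. By limma, SF3B1 had a log2 fold change of 0.24 ± 0.05 (SE, adjusted p = 0.014), or 1.18-fold higher in the HA-IPs. SF3B3, a large beta-propeller subunit, had 31246, 30129 and 32649.5 normalized counts by Flag-IP against 37651, 36300.0 and 37183 by HA-IP. Again the groups did not overlap, with less spread in each than between them. SF3B3 had a log2 fold change of 0.24 ± 0.05 (SE, adjusted p = 0.0098, limma), or 1.18-fold higher in the HA-IPs. With quantile normalization it was 0.09 and SF3B3 was not called (adjusted p = 0.19, limma), nor was SF3B1 (0.12, adjusted p = 0.068, limma). SF3B5, the smallest subunit, had 986, 716 and 804 normalized counts by Flag-IP against 523, 598 and 624 by HA-IP. All Flag-IPs were above all HA-IPs, and Flag-IP 1 was the highest. This gave SF3B5 a log2 fold change of -0.51 ± 0.11 (SE, adjusted p = 0.014, limma), that is 1.43-fold higher in the Flag-IPs. The other U2 genes, SNRPA1, SNRPB2, SF3A1, SF3A2, SF3A3, SF3B2, SF3B4 and SF3B6, had log2 fold changes of -0.22 (SNRPB2) to 0.14 (SF3B2), with 4 above and 4 below 0 and adjusted p-values of 0.069 to 0.74 (limma).

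U2AF1, the small U2AF subunit that reads the end of the intron, had only 46.8, 41.5 and 42.4 normalized counts by Flag-IP against 36.0, 39.6 and 41.9 by HA-IP. The groups overlapped. By limma, U2AF1 had a log2 fold change of -0.15 ± 0.22 (SE, adjusted p = 0.72), and it was not called. These values are uncertain, because a near-identical copy in the same build, LOC102724594, held 82.2 to 146.7 normalized counts, more than U2AF1 in every library, so reads could be split between the copies. U2AF2, the large subunit, measured 18866 to 22486 normalized counts with a log2 fold change of 0.14 and was not called (adjusted p = 0.093, limma).

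The tri-snRNP had the most calls higher in the HA-IPs, 4 of its 8 genes. PRPF8, the U5 protein at the heart of the catalytic centre, had 82565, 84640.5 and 95557 normalized counts by Flag-IP against 98963, 105955.5 and 103553 by HA-IP. Flag-IP 3 came closest to the HA-IPs without reaching them. PRPF8 had a log2 fold change of 0.23 ± 0.06 (SE, adjusted p = 0.036, limma), or 1.18-fold higher in the HA-IPs. It stayed called in 1 of the 6 fits that left out a library. With quantile normalization its log2 fold change was 0.07 and it was not called (adjusted p = 0.43, limma). SNRNP200, the U5 helicase that unwinds U4 from U6, had 45343, 46591 and 53411 normalized counts by Flag-IP against 55219, 57037 and 56276 by HA-IP. The order of its libraries was alike, with Flag-IP 3 the highest Flag-IP and all HA-IPs above it. This gave SNRNP200 a log2 fold change of 0.22 ± 0.06 (SE, adjusted p = 0.044, limma), that is 1.16-fold higher in the HA-IPs. It too stayed called in 1 of the 6 fits that left out a library, and quantile normalization gave 0.09 (adjusted p = 0.21, limma). PRPF6, which bridges U5 and U4/U6, had 7127, 7421 and 8040.4 normalized counts by Flag-IP against 8684, 8705 and 9049 by HA-IP. The groups did not overlap. By limma, PRPF6 had a log2 fold change of 0.23 ± 0.05 (SE, adjusted p = 0.017), or 1.17-fold higher in the HA-IPs. PRPF3, a U4/U6 protein, had 2748, 2726 and 2939.6 normalized counts by Flag-IP against 2991, 3388 and 3539.6 by HA-IP. HA-IP 1 lay just above Flag-IP 3, and the other HA-IPs were further away. PRPF3 had a log2 fold change of 0.23 ± 0.07 (SE, adjusted p = 0.039, limma), or 1.18-fold higher in the HA-IPs. The remaining genes, PRPF4, PRPF31, SNRNP40 and SNRNP27, had log2 fold changes of -0.23 (SNRNP27) to 0.13 (SNRNP40) and were not called. SNRNP27, with the shortest coding sequence of the 8, had the lowest fold change of the 8.

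Of the minor spliceosome proteins, which serve the rare U12-type introns, SNRNP25 had 1187, 1082.5 and 1105 normalized counts by Flag-IP against 870.0, 966 and 1014.5 by HA-IP. Its groups were apart, and HA-IP 1 was the lowest library. This gave SNRNP25 a log2 fold change of -0.25 ± 0.07 (SE, adjusted p = 0.048, limma), that is 1.19-fold higher in the Flag-IPs. It lost its call in each of the 6 fits that left out a library. SNRNP35 and SNRNP48 had log2 fold changes of 0.15 and -0.08 and were not called.

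The other PRPF genes held a call in each direction. PRPF19, the ubiquitin ligase that scaffolds the complex named after it, had 8571, 8454 and 9048.5 normalized counts by Flag-IP against 10295, 10100.1 and 10590.2 by HA-IP. The HA-IPs were all higher, by more than the spread in either group. By limma, PRPF19 had a log2 fold change of 0.25 ± 0.05 (SE, adjusted p = 0.0071), or 1.19-fold higher in the HA-IPs. PRPF18, a factor for the second catalytic step, had 409, 404 and 352 normalized counts by Flag-IP against 312, 298 and 322 by HA-IP. Its groups did not overlap, although Flag-IP 3 lay nearer to the HA-IPs than to the other Flag-IPs. PRPF18 had a log2 fold change of -0.32 ± 0.10 (SE, adjusted p = 0.05, limma), or 1.25-fold higher in the Flag-IPs. That adjusted p lay just inside the threshold, edgeR placed it just outside (also 0.05 when rounded), DESeq2 did not call it (adjusted p = 0.067), and it stayed called in 1 of the 6 fits that left out a library. It was the 1 called member with over 1000 coding bases that was higher in the Flag-IPs. PRPF4B, a kinase, and PRPF38A, PRPF38B, PRPF39 and PRPF40B had log2 fold changes of -0.05 to 0.12 and adjusted p-values of 0.13 to 0.94 (limma).

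**Figure D3:**
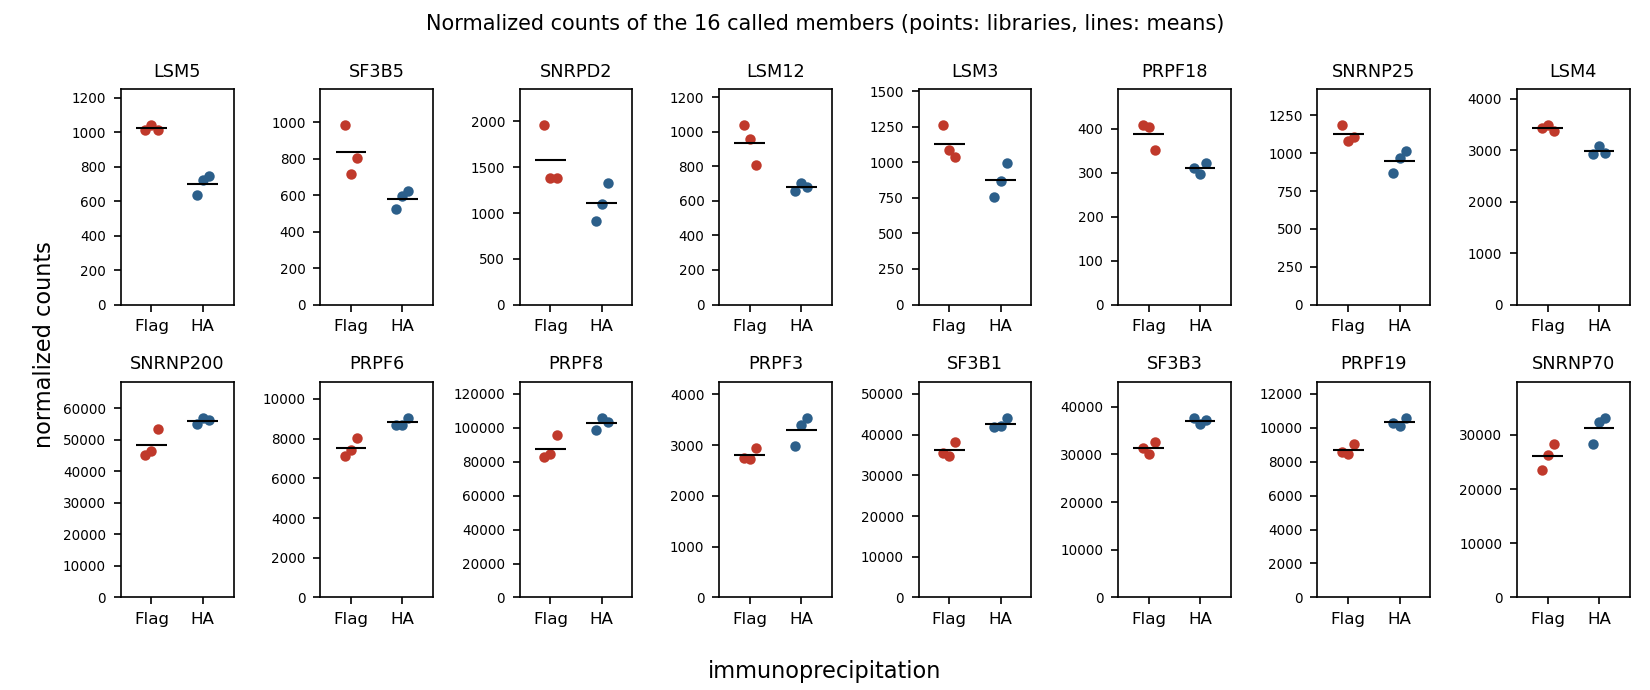
Each panel shows 1 of the 16 called members, with a point for each library (from left to right replicates 1, 2 and 3) and a line for the mean, in normalized counts on an axis from 0. The upper row holds the 8 members higher in the Flag-IPs, none of which overlaps, and the lower row the 8 higher in the HA-IPs, of which SNRNP70 overlaps.

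Which calls held with a library left out differed between libraries. LSM12, LSM4, LSM5, SF3B5, PRPF19, PRPF3, PRPF6, SF3B1 and SF3B3 stayed called without Flag-IP 1. LSM5 and SF3B5 were the calls that stayed without Flag-IP 2. Without HA-IP 1 the calls that stayed were LSM5, PRPF19, PRPF3 and SNRNP70, and without HA-IP 2 they were LSM5, LSM12, PRPF19 and SF3B3. LSM3, LSM5, LSM12, SF3B5, SNRPD2, PRPF19 and SF3B3 stayed without HA-IP 3, and SNRPE was added. Leaving out Flag-IP 3 lost SNRNP25 and added 9 members, for 12 in each direction. The 21 members with values above otherwise kept their direction in all 6 of these fits, with LSM1 as the exception.

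Read against coding length, the members' fold changes followed the order that all coding genes showed. Of the 28 members with under 1000 coding bases, 7 (25%) were higher in the Flag-IPs and 0 lower by limma, and among all 4168 such genes the shares were 12.9% and 1.39%. For the short members higher in the HA-IPs, 1 had an unadjusted p under 0.05 in limma, and edgeR and DESeq2 also called 0. Of the 27 members with at least 1000 coding bases, 8 (29.6%) were higher in the HA-IPs and 1 (3.70%) lower, and among all 9696 such genes the shares were 9.31% and 4.41%. The median log2 fold change of the short members was -0.21, against -0.11 for all short genes. For the long members it was 0.12, against 0.05 for all long genes. The split by length crossed the families. The 11 short members that are neither Sm nor LSM had a median of -0.19 with 9 below 0, and the 3 long LSM genes, LSM11, LSM14A and LSM14B, had a median of 0.12 with 2 above 0.

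**Figure D4:**
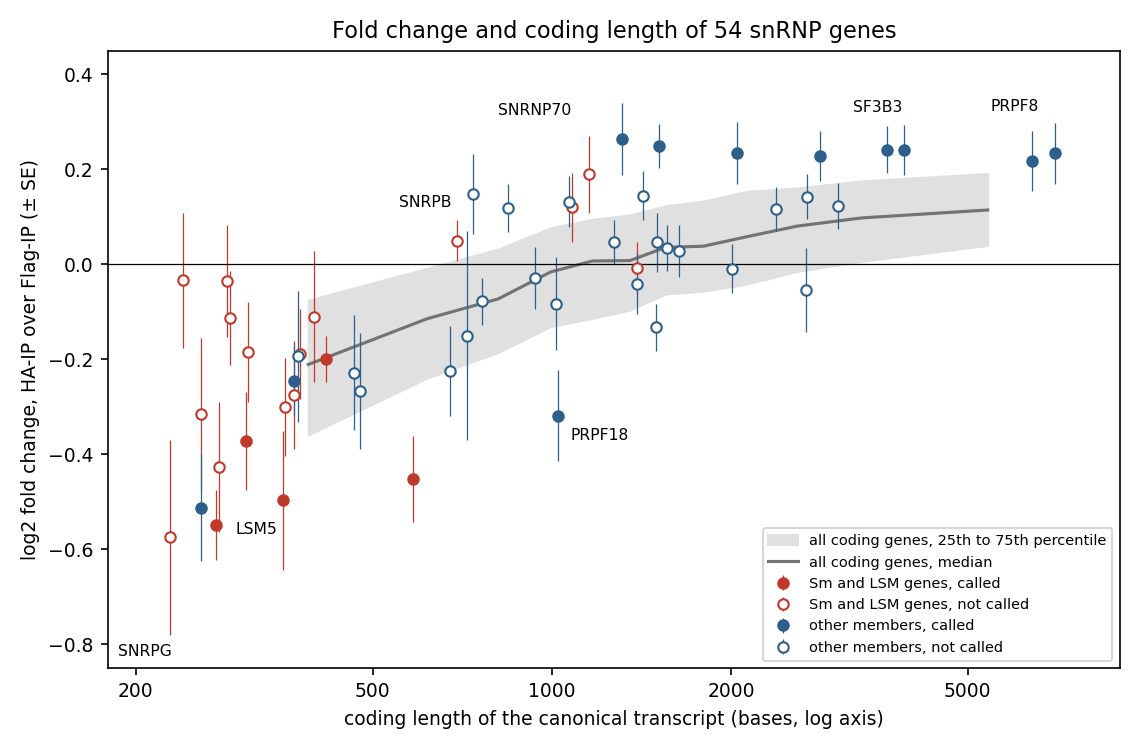
Each point is 1 of 54 members, with its coding length in bases on a log axis and its log2 fold change, HA-IP over Flag-IP, ± SE from limma, filled where called. The grey line and band give the median and the 25th to 75th percentile in 12 bins of length. They cover the 12129 coding genes that averaged 50 or more normalized counts, a limit not set for the members. The band rises from a median of -0.21 near 390 bases to 0.11 near 5400 bases, and every member called higher in the Flag-IPs lies to the left of every member called higher in the HA-IPs.

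Over the 55 members, Spearman's rho of the log2 fold change was 0.78 with coding length, 0.47 with transcript length, 0.28 with GC content and 0.68 with the mean level. Over the 12129 coding genes that averaged 50 or more normalized counts it was 0.44, 0.27, -0.04 and 0.26. These are descriptions across genes, which share libraries and are not independent. Coding length and level were themselves related among the members, with a rho of 0.73. Mean levels ran from 349.6 to 3205 normalized counts for the members called higher in the Flag-IPs and from 3055 to 95210 for those called higher in the HA-IPs. All 9 members with a mean over 10000 normalized counts had fold changes above 0, and 5 of them were called. Per kilobase of transcript the mean level ran from 30.7 normalized counts for LSM8 to 17150 for SNRNP70, and PRPF8 reached 13080 and SNRPB 10290 on that scale.

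The difference between the families was uneven across the libraries. It was measured against each gene's mean over all 6 libraries, so the values of the libraries depend on each other and are not separate support. As the median deviation from each gene's mean on the log2 scale, the Sm and LSM genes stood above the other members by 0.26, 0.11 and 0.04 in Flag-IP 1, 2 and 3, and below them by 0.25, 0.10 and 0.05 in HA-IP 1, 2 and 3 (differences of -0.25, -0.10 and -0.05). Flag-IP 1 and HA-IP 1 were the extremes, and Flag-IP 3 and HA-IP 3 lay nearest to 0. For all coding genes, those under 1000 coding bases minus the longer ones, the same measure was 0.16, 0.07 and 0.02 by Flag-IP and -0.12, -0.07 and -0.05 by HA-IP, in the same order of libraries. Flag-IP 1 had the fewest reads and HA-IP 1 the most, and Flag-IP 1 also had the highest summed level of heart muscle markers. The part of depth and of these markers in the difference was not tested.

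**Figure D5:**
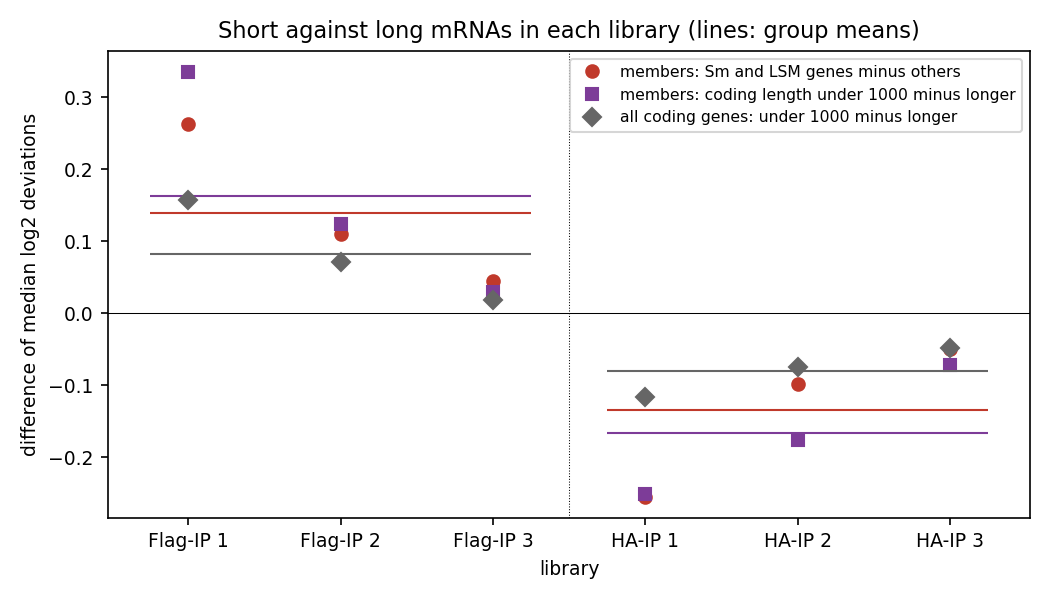
For each library, the points give the median log2 deviation of Sm and LSM genes minus other members (circles), of members under 1000 coding bases minus longer ones (squares) and of all coding genes under 1000 coding bases minus longer ones (diamonds), with lines for the means of the 3 libraries of a group. All 3 measures are above 0 in every Flag-IP and below 0 in every HA-IP, from 0.34 for the members in Flag-IP 1 to -0.25 in HA-IP 1. Deviations are from each gene's mean over all libraries, so the points of different libraries depend on each other.

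Removing the trend with length from each library changed which members were called. The median log2 fold change of the Sm and LSM genes minus that of the others was -0.24 as measured. It was -0.13 once the trends with transcript length and GC content had been removed from each library, and -0.01 when coding length took the place of transcript length, an alternative chosen after seeing the data. In the last of these, 2 members remained called higher in the Flag-IPs, LSM12 (log2 fold change -0.33, adjusted p = 0.012, limma) and PRPF18 (-0.30, adjusted p = 0.036, limma). Of the 7 called higher in the HA-IPs, PRPF19, PRPF6, SF3B3 and SNRNP70 had been called before and SNRPA, SNRPB and U2AF2 were added. LSM5 went to -0.28 (adjusted p = 0.086, limma), SF3B5 to -0.22 (0.081) and PRPF8 to 0.11 (0.062), each in the direction it had before. With transcript length in its place, LSM5 kept -0.49 (adjusted p = 0.0018, limma).

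Other proteins of the pathway, from a list of 61 spliceosome proteins outside these families, had 9 genes called higher in the HA-IPs, 1 lower and 51 not called, with a median log2 fold change of 0.08. These are 14.8% and 1.64% of the list, against 5.79% and 7.10% of all genes. Among those of the list with at least 1000 coding bases the shares were 20.0% and 0%, against 9.31% and 4.41% of all such genes. All 9 had at least 1000 coding bases. BUD31, a small protein of the catalytic spliceosome with 432 coding bases, had 734, 598 and 623.5 normalized counts by Flag-IP against 444.5, 459.5 and 506 by HA-IP (log2 fold change -0.47 ± 0.09 SE, adjusted p = 0.0096, limma). AQR, an intron-binding helicase with 4455 coding bases, had 4704, 4604 and 4999 by Flag-IP against 5679, 5459 and 5834 by HA-IP (0.25 ± 0.05 SE, adjusted p = 0.01, limma). DHX8, the helicase that releases spliced mRNA, had a log2 fold change of 0.23 (adjusted p = 0.013, limma). The groups did not overlap for any of these genes. Of the 61, 16 had under 1000 coding bases, with 11 fold changes below 0, and 45 were longer, with 39 above 0. Of those 16, BUD31 was the 1 called higher in the Flag-IPs. This is 6.25%, against 12.9% of all genes under 1000 coding bases and 25% of such members.

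A list of snRNP assembly factors holds the SMN complex and its partners, which load Sm proteins onto snRNA, and other factors of snRNP maturation. It matched 19 rows, of which 3 were called higher in the HA-IPs and 0 lower by limma. In the lower direction 0 also had an unadjusted p under 0.05, and edgeR and DESeq2 called 0. The 3 called genes do not all belong to the SMN complex. The 3 are 15.8% of the list, against 5.79% of all genes higher in the HA-IPs and 7.10% lower. DDX20, a helicase of the SMN complex, had 3431, 3343 and 3331 normalized counts by Flag-IP against 4172, 3999 and 4166 by HA-IP (log2 fold change 0.29 ± 0.05 SE, adjusted p = 0.0033, limma). GEMIN5, its snRNA-binding subunit, had 5895, 5847 and 6621 by Flag-IP against 7299, 7515 and 7561 by HA-IP (0.29 ± 0.06 SE, adjusted p = 0.0077, limma). All HA-IPs of both were above all Flag-IPs, and both have over 1000 coding bases, at 2472 for DDX20 and 4524 for GEMIN5. The symbol SMN1 stood on 2 rows, the second of which carried the Ensembl ID of SMN2, and reads may be split between these near-identical genes. Of the 8 assembly rows with under 1000 coding bases none was called, with 4 above and 4 below 0. Among all genes under 1000 coding bases, 12.9% were called higher in the Flag-IPs and 1.39% higher in the HA-IPs.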

How the data were processed

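Total RNA of 3 Flag-IPs and 3 HA-IPs was sequenced by the authors after poly(A) selection, as read pairs of 150 bases. Per the labels and methods, they used Trimmomatic 0.36, STAR 2.5.2b with GRCh38, featureCounts of Subread 1.5.2 and DESeq2 (version listed as 3.16), and left out genes with few reads. Whether counting used strand is not given in the sources used here, so reads of a gene and an overlapping antisense gene cannot be told apart. The deposited values are a normalized signal, each count having been scaled by the authors with 1 DESeq2 size factor for the library. The smallest value above 0 in a library, refined over its larger values, was taken as 1 read, and division by it gave whole reads for 100% of values, within 6.43e-05 of a read at most. On these reads edgeR called 7.31% of all genes higher in the Flag-IPs and 5.35% higher in the HA-IPs. The authors' own fold change and adjusted p columns were not used. Libraries held 23174532 to 44134833 reads, and SEs from limma hold both the spread between replicates and counting error.

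limma 3.58.1 (R 4.3.3), with a trend of variance with level, was fitted to log2(normalized count + 1) over all 16834 genes, two-sided, with Benjamini-Hochberg adjustment over all of them and a threshold of 0.05. The pseudocount makes fold changes of low genes too small. edgeR 4.0.16 and DESeq2 1.42.0 on the recovered reads, other pseudocounts, scalings and filters, a replicate block, each library left out in turn, and removal of length and GC trends (natural splines with 5 degrees of freedom) were the alternatives. The fits with limma, edgeR and DESeq2 and the removal of a length trend were tested on simulated data, and the other steps were not. Coordinates and coding lengths, without the stop codon, came from canonical transcripts of GENCODE 44 on GRCh38, matched by Ensembl ID for 16683 genes, of which 13864 had a coding length. Values in every library were given for called members and, in each role, the member with the largest absolute fold change. From each list of other pathway proteins, called genes were named, at most the 2 with the smallest p in each direction. Other members that appear with a value were named to complete their role. Members, roles and lists were chosen with earlier results of these data known. The values of 1 member are not reported here, although it is counted among the 55.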

Additional observations from a re-analysis of the deposited data

How the results depend on the processing

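Counts of called members varied more than their directions did. Across the fits without 1 library, 1 to 12 members were higher in the Flag-IPs and 0 to 12 in the HA-IPs. Quantile normalization gave 4 and 2, and limma without the trend 1 and 0, where edgeR gave 7 and 8 and 17 members had an unadjusted p under 0.05. Scaling to the same total gave 11 and 5. Removing transcript length and GC trends gave 6 and 12, and removing coding length and GC trends, chosen after seeing the data, gave 2 and 7 with a family difference of -0.0139. The family difference stayed at -0.31 to -0.13 under the other 17 alternatives. The cause of these changes was not tested.

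Same-numbered Flag-IP and HA-IP libraries deviated from their group means with Pearson's r across genes of -0.16, 0.03 and -0.31. For differently numbered libraries r ran from -0.24 to 0.30. Deviations from a mean of 3 libraries depend on each other, so these values cannot show whether same-numbered libraries came from the same cells. With the replicate block, 4 members were higher in the Flag-IPs and 8 in the HA-IPs.

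Of the 21 members with values in every library, U2AF1 changed sign with quantile normalization (0.0747) and with transcript length and GC trends removed (0.0080). LSM1 did so without Flag-IP 1 (0.0405, against a lowest leave-one-out value of -0.1890), with transcript length and GC trends removed (0.0640) and with coding length and GC trends removed (0.0824). LSM4 did so with coding length and GC trends removed (0.0295). None of these was called after the change, and U2AF1 was not tested at a mean of at least 50 normalized counts. The other 18 kept their direction throughout.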
